A study of Mus musculus with 12 samples.

Results

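The matrix metalloproteinases (MMPs) and their tissue inhibitors (TIMPs) were described in bone marrow macrophages (BMMs) treated with a neutralizing antibody to ITGA5, the alpha 5 integrin subunit. The 10 genes Mmp2, Mmp8, Mmp9, Mmp12, Mmp13, Mmp14, Mmp19, Timp1, Timp2 and Timp3 were selected on gene name from the 54532 genes of the count table. The names were chosen with earlier results of the same libraries known, and Mmp9 had been picked out by the size of its fall upon ITGA5 neutralization. Each of its comparisons shares libraries with that fall, so that they are given as values without a test. The tests of the other members are no independent support for a pattern in the family. The BMMs came from wild-type C57BL/6J mice aged 2 to 3 months. All groups shared differentiation with CSF-1, first at 12 ng/ml and then at 120 ng/ml, in medium with 15% serum. Cells were kept on uncoated dishes or on dishes coated with fibronectin, and received 10 µg/ml of isotype IgG or of anti-ITGA5 antibody over 24 h. This gave 4 groups of 3 libraries each, IgG or anti-ITGA5, each without or with fibronectin. The cells are a culture model of macrophages and were not taken from an infarct. The labels do not say whether the replicates came from separate animals, so that p-values measure the spread between these libraries.

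MMPs are zinc-dependent endopeptidases that are secreted, or held at the cell surface, as inactive proenzymes and that cleave collagens, gelatin, elastin, proteoglycans and many cytokines once activated. TIMPs bind the active site of MMPs and block it. Macrophages use them to remodel the matrix of healing tissue, and the alpha 5 beta 1 integrin, which the antibody neutralizes on its alpha subunit, is a receptor for fibronectin.

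The libraries held 12954342 to 22075432 counts on genes, with the smallest total in anti-ITGA5 without fibronectin replicate 2. That library also stood apart on the second principal component of log2 CPM (20.6% of the variance), at 45.1 against -17.3 to 7.68 for the others. Without it, 3834 genes were called in place of 2684 between the antibodies without fibronectin. The log2 fold changes of the members called there were then -0.87 for Mmp8, -0.54 for Mmp19, -0.19 for Timp2 and 0.54 for Mmp12, each still called. All 8 macrophage markers were counted at least 10 times in every library, with a summed level (FPKM, fragment counts scaled by gene length and library size) of 8977 to 9822 in IgG and 6129 to 7517 in anti-ITGA5 without fibronectin, and of 9558 to 9759 and 7336 to 7506 with fibronectin. Lyz2 made up most of each sum, at a mean of 7514 FPKM in IgG and 5256 in anti-ITGA5 without fibronectin, and 7809 and 5691 with it. The sums thus follow that gene. Adgre1 had means of 169 and 170 FPKM without and 167 and 180 with fibronectin, and Cd14 104 and 142, and 105 and 125. In both antibody comparisons 4 of the 8 fell and 1 rose. Of 8 proliferation markers 6 rose in each, with median log2 fold changes of 1.21 and 1.25. In bulk RNA a smaller number of cells of a type and less RNA per cell cannot be told apart. Fibroblast markers summed to 0.217 to 0.478 FPKM over the libraries. Osteoclast markers summed to 17.7 to 19.0 FPKM in IgG and 16.1 to 18.2 in anti-ITGA5 without fibronectin, and to 19.6 to 22.8 and 16.8 to 20.3 FPKM with it. Endothelial markers summed to 8.50 to 9.19 and 8.12 to 9.56 FPKM without fibronectin, and to 8.97 to 9.93 and 7.71 to 8.71 FPKM with it. None of these 3 lists had a call without fibronectin, whereas with it Acp5 of 6 tested osteoclast markers (-0.93, adjusted p = 0.00736) and Vwf of 4 tested endothelial markers (-0.30, adjusted p = 0.00200, edgeR) were lower with the antibody on the log2 scale. The part of cell cycle or cell state in the results on MMPs was not tested.

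The members spanned a wide range of levels per gene length. Averaged over the 12 libraries, Mmp12 was the most abundant at 64.7 FPKM, followed by Timp2 at 33.2 FPKM and Mmp8 at 19.5 FPKM. Mmp13, Mmp19 and Mmp9 formed a middle tier at 7.31, 6.67 and 5.59 FPKM, and the ranges of neighbours in that tier overlapped between libraries. Timp1 (1.11 FPKM), Mmp14 (0.640 FPKM), Mmp2 (0.218 FPKM) and Timp3 (0.0235 FPKM) lay at the bottom. The ranges of Timp1 and Mmp14 overlapped. Mmp12 lay above Timp2, Timp2 above Mmp8, and Mmp14 above Mmp2 in every library, although the ranges of Timp2 and Mmp8 over all libraries overlapped. Mmp2, Timp1 and Timp3 had too few counts to resolve moderate changes. Mmp2 had 7 to 19 counts per library and Timp1 9 to 29, whereas Timp3 had 0 to 10, fell short of the low-count filter and received no fold change. The other 9 members passed that filter in each comparison.

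Mmp8, Mmp12 and Mmp13 lie in the MMP gene cluster of chromosome 9 and were the members called on fibronectin in IgG. The bases upstream of their start sites are therefore shown, from RefSeq on GRCm38.p6, plus strand, with the last base next to the start. Windows matched 7 of the 10 members, and none was matched for Mmp2, Mmp9 and Mmp19. Capitals mark matches to the AP-1 motif TGANTCA or the Ets motif AGGAAG on either strand, or to TATAAA on the strand of the gene.
Mmp13 promoter, chr9:7272264-7272513: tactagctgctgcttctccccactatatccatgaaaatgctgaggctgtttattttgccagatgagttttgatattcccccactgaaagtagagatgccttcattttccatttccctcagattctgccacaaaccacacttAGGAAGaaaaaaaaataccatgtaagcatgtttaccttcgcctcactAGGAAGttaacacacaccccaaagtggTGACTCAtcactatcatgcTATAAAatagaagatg
Mmp12 promoter, chr9:7344147-7344396: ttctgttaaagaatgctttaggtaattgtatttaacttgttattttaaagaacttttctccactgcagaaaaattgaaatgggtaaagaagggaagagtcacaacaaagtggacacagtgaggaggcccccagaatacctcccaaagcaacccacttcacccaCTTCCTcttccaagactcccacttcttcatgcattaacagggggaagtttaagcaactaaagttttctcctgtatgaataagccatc
Mmp8 promoter, chr9:7558179-7558428: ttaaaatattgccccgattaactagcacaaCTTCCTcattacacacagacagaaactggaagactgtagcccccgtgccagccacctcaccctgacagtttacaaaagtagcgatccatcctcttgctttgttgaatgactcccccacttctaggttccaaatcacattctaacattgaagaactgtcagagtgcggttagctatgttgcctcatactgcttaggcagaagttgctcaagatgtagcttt

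The 250 bases before the start of Mmp13 held 1 AP-1 match, whose first base lay at -35 from the start, 2 Ets matches at -109 and -62, and 1 TATAAA match at -16. The window of Mmp12, at its start nearest to that of the count table, held 1 Ets match at -87, and that of Mmp8 1 Ets match at -220. Neither held the letters of the AP-1 or TATAAA motif. Among 32851 windows of the same length, 6.75% held the AP-1 letters, 29.5% the Ets letters and 7.59% the TATAAA letters. Mmp14, Timp1 and Timp3 had Ets matches without AP-1 matches, and Timp2 had none of the motifs. No matched motif overlapped another, and a match is a run of letters, not a shown binding site.

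ITGA5 neutralization was compared with IgG on each coating to learn how MMP and TIMP expression depends on ITGA5. Counts were tested with the quasi-likelihood F-test of edgeR, p-values were adjusted after Benjamini and Hochberg across the genes tested, and the threshold was 0.05. Mmp9 was left out of the counts. Without fibronectin, 3 of the 8 other members tested were called lower, where 9.79% of the 12924 genes tested were lower. They were Mmp8, Mmp19 and Timp2, and Mmp12 was the 1 member called higher, where 11% of genes were higher. With fibronectin, the same 3 members were called lower beside 13.2% of the 12916 genes tested, and 0 members were called higher by edgeR or by DESeq2 beside 14.4% of genes. At an unadjusted p-value under 0.05 there were the same 3 members beside 4996 of the 12916 genes with fibronectin, and 6 members, with Mmp13 and Mmp14 added, beside 4329 of the 12924 genes without it. The median log2 fold change of the 8 members was -0.05 without and -0.28 with fibronectin, whereas that of all genes was 0.0090 and -0.0038. The number of lower members without fibronectin was 1 when IgG without fibronectin replicate 2 was left out. On fibronectin the number was 5 when anti-ITGA5 with fibronectin replicate 3 was left out, Mmp13 and Mmp14 being the members added. The fold changes and intervals of these members and of Mmp9 are plotted by comparison.

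**Figure D1:**
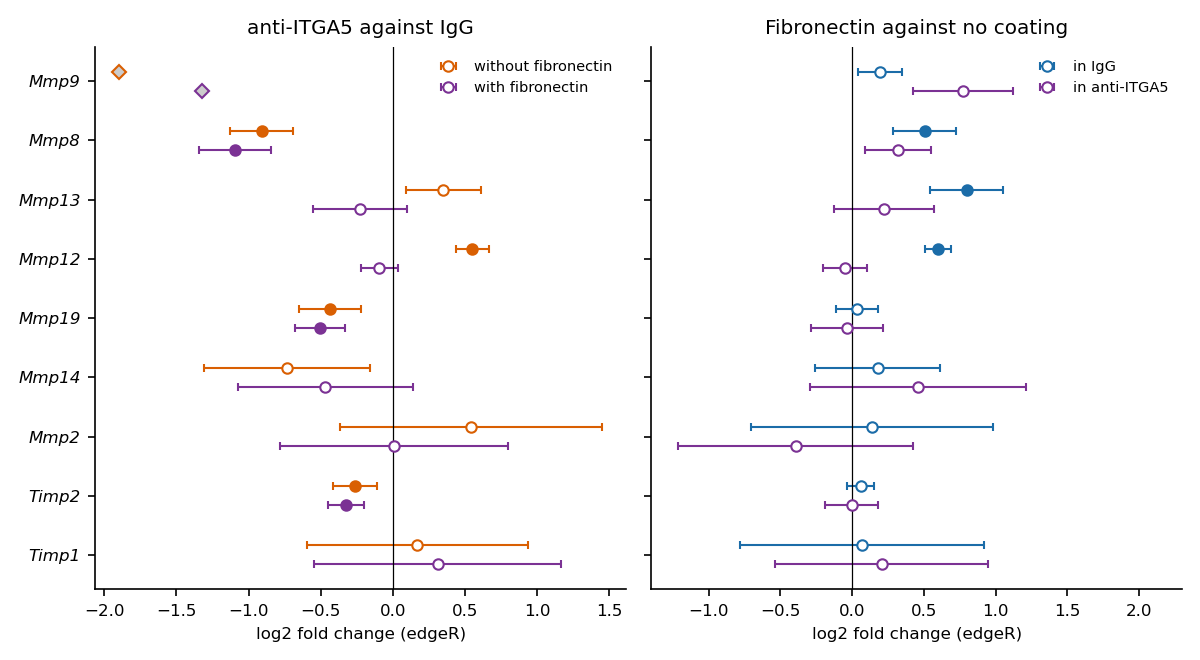
Log2 fold change from edgeR (horizontal axis) with its 95% interval (bars) for the tested members. Left, anti-ITGA5 against IgG on each coating; right, fibronectin against no coating under each antibody. Filled circles passed the threshold of 0.05, open circles did not, and grey diamonds mark Mmp9 in the left panel, given without a test or interval. Its intervals in the right panel use libraries on which it was picked and are not read as a test. Mmp9, Mmp8, Mmp19 and Timp2 lie left of 0 on both coatings in the left panel, while Mmp12 lies at 0.55 without and -0.09 with fibronectin.

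Mmp9 encodes gelatinase B, which degrades gelatin and basement membrane collagen. The gene (ENSMUSG00000017737) lies on the plus strand of chromosome 2 of GRCm38 from 164940780 to 164955850 and overlaps no annotated gene. Without fibronectin its level was 7.34, 7.76 and 8.25 FPKM in IgG and 2.08, 1.52 and 2.55 FPKM upon ITGA5 neutralization. With fibronectin it was 8.41, 9.06 and 9.34 FPKM in IgG and 3.68, 3.31 and 3.76 FPKM upon ITGA5 neutralization. Every anti-ITGA5 library lay below every IgG library, which describes the values on which the gene was picked. Counts stood at 74 to 253 in the anti-ITGA5 libraries and at 449 to 698 in IgG. The log2 fold change was -1.90 without and -1.32 with fibronectin, or 0.269 and 0.400 times the level in IgG. Anti-ITGA5 without fibronectin replicate 2, the library with the fewest counts in total, had the lowest level, and without it the first value was -1.74.

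Within the anti-ITGA5 groups, the 3 libraries with fibronectin each had more Mmp9 than the 3 without. That difference was 0.77 on the log2 scale. In IgG the 3 libraries with fibronectin were also above the 3 without, with a log2 difference of 0.19. Both differences use libraries on which Mmp9 was picked and are given without a test.

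Mmp2 encodes gelatinase A, the other gelatinase. It lies on chromosome 8. Its counts were 9, 17 and 7 in IgG and 19, 13 and 15 upon ITGA5 neutralization without fibronectin. With fibronectin they were 11, 19 and 11 in IgG and 10, 13 and 15 upon ITGA5 neutralization. The groups overlapped on both coatings. The log2 difference without fibronectin had a 95% interval from -0.37 to 1.45, and that with fibronectin one from -0.78 to 0.80. At this depth the counts allow a change in either direction on both coatings.

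Mmp8 encodes neutrophil collagenase, or collagenase 2, which cleaves fibrillar collagens. The gene (ENSMUSG00000005800) lies on the plus strand of chromosome 9 from 7558456 to 7568485. Its level without fibronectin was 24.0, 18.0 and 22.5 FPKM in IgG and 12.0, 10.7 and 11.5 FPKM upon ITGA5 neutralization. With fibronectin the level was 31.2, 25.7 and 35.3 FPKM in IgG and 12.1, 15.6 and 15.5 FPKM upon ITGA5 neutralization. All anti-ITGA5 libraries were below all IgG libraries, whichever the coating. On the log2 scale Mmp8 fell by 0.91 without fibronectin (standard error 0.0997, adjusted p = 1.45e-04) and by 1.10 with fibronectin (standard error 0.115, adjusted p = 2.64e-05, edgeR F-test, Benjamini-Hochberg). The difference between the coatings in this fall was -0.19 (95% interval -0.57 to 0.19, adjusted p = 1.00, edgeR interaction test).

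Neutrophils are a known source of MMP8 and MMP9 protein. Of 10 neutrophil markers, Ly6g and Retnlg had 0 counts in every library and S100a8 alone reached 10 counts in all, at 17 to 44. The summed level of the list was 2.41 to 4.23 FPKM in IgG and 2.69 to 3.70 FPKM in anti-ITGA5 without fibronectin. With fibronectin it was 3.04 to 4.53 FPKM in IgG and 1.86 to 3.02 FPKM in anti-ITGA5, so that it was lower with the antibody on that coating, along with Mmp8. Mpo, the granule myeloperoxidase, had 18 to 21 counts in IgG and 9 to 11 in anti-ITGA5 on that coating, and 3 to 13 in IgG and 5 to 14 in anti-ITGA5 without fibronectin. With fibronectin, 1 of the 2 neutrophil markers tested was called lower with the antibody (edgeR), beside 13.2% of genes. Their median log2 fold change was -0.78. Without fibronectin, 0 of 1 tested was called. On fibronectin in IgG, where Mmp8 was called higher, the 2 tested neutrophil markers had a median log2 difference of 0.73, with 0 called. The part of neutrophils in the Mmp8 results, for the antibody and for fibronectin, was not tested.

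Mmp13 encodes collagenase 3, a collagenase with a wide range of substrates. The gene (ENSMUSG00000050578) opens the cluster on chromosome 9, from 7272514 to 7283331. Without fibronectin its level was 5.0, 4.84 and 6.04 FPKM in IgG and 6.67, 5.81 and 7.59 FPKM upon ITGA5 neutralization. With fibronectin it was 10.2, 7.51 and 10.2 FPKM in IgG and 6.80, 6.99 and 10.0 FPKM upon ITGA5 neutralization. The groups overlapped in both antibody comparisons. The log2 difference was 0.35 without fibronectin (95% interval 0.09 to 0.61, adjusted p = 0.0580) and -0.23 with fibronectin (95% interval -0.55 to 0.10, adjusted p = 0.286, edgeR F-test, Benjamini-Hochberg). Anti-ITGA5 with fibronectin replicate 3 stood above the other two libraries of its group, and without it the second value was -0.42 (adjusted p = 0.0108, edgeR). With total counts in place of edgeR's TMM scaling the first became 0.39 (adjusted p = 0.0344, edgeR). It was also called without the filter on low counts (adjusted p = 0.0184, edgeR), without IgG without fibronectin replicate 3 (0.45, adjusted p = 0.0435, edgeR) and without anti-ITGA5 without fibronectin replicate 2 (0.43, adjusted p = 0.00820, edgeR).

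Mmp12 encodes macrophage elastase, which degrades elastin and is made mainly by macrophages. The gene (ENSMUSG00000049723) lies on the plus strand of chromosome 9 from 7344381 to 7369499. Its level without fibronectin was 45.9, 48.7 and 49.0 FPKM in IgG and 71.2, 70.2 and 68.2 FPKM upon ITGA5 neutralization. With fibronectin the level was 69.2, 73.5 and 75.6 FPKM in IgG and 64.2, 75.3 and 65.3 FPKM upon ITGA5 neutralization. The 3 libraries of IgG without fibronectin were below all 9 others, which overlapped with one another. On the log2 scale Mmp12 rose by 0.55 upon ITGA5 neutralization without fibronectin (standard error 0.0521, adjusted p = 5.59e-05). With fibronectin the log2 difference was -0.09 (95% interval -0.22 to 0.03, adjusted p = 0.269, edgeR F-test, Benjamini-Hochberg). Without anti-ITGA5 with fibronectin replicate 2 the latter was -0.17 (adjusted p = 0.0231, edgeR).

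The antibody effect on Mmp12 thus differed between the coatings. The interaction of antibody and coating had a log2 value of -0.65 with a standard error of 0.0836 (adjusted p = 0.00764, edgeR F-test, Benjamini-Hochberg). Mmp12 was 1 of the 3 genes, or 0.0223% of 13455 tested, called for the interaction in either direction. The call was lost without IgG without fibronectin replicate 1 (adjusted p = 0.0628, edgeR), without IgG with fibronectin replicate 3 (adjusted p = 0.0531, edgeR) and with limma on log2 FPKM (adjusted p = 0.0567 to 0.0773), while the value stayed between -0.72 and -0.60. The interaction of Mmp13 was -0.58 (adjusted p = 1.00, edgeR) and was not called, except without the filter on low counts (adjusted p = 0.0155, edgeR), where 0.236% of 27574 genes were called. That of Mmp9 was 0.57, given without a test.

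**Figure D2:**
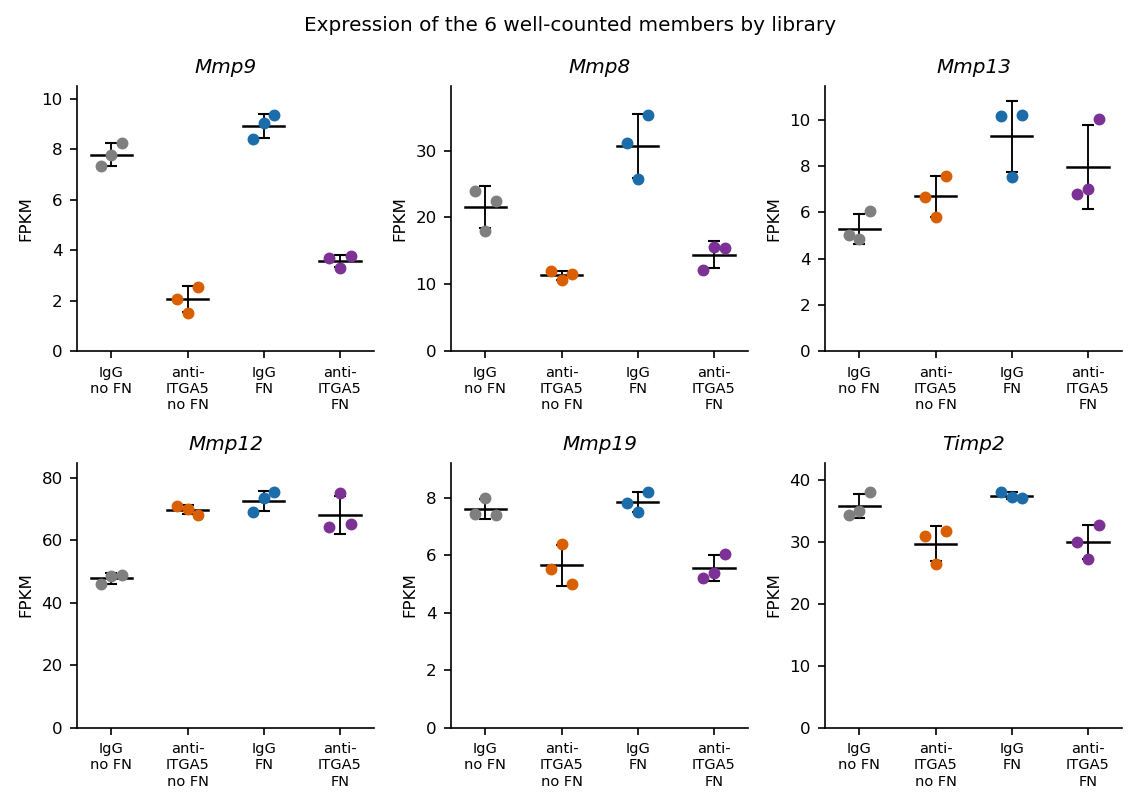
FPKM (vertical axes) of the 6 members with the most counts in the 4 groups. Points are libraries, horizontal lines the group means and bars the SD (n = 3), and FN stands for fibronectin. Mmp9, Mmp8, Mmp19 and Timp2 are lower with anti-ITGA5 on both coatings, and Mmp12 is lower in IgG without fibronectin (45.9 to 49.0 FPKM) than in the 9 other libraries.

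Mmp14 encodes the membrane-anchored MT1-MMP, which activates pro-MMP2 and cleaves collagen at the cell surface. Its counts were 52, 84 and 89 in IgG and 40, 30 and 65 upon ITGA5 neutralization without fibronectin. With fibronectin they were 67, 109 and 110 in IgG and 41, 61 and 88 upon ITGA5 neutralization. The groups overlapped on both coatings. The log2 difference was -0.73 (95% interval -1.31 to -0.16, adjusted p = 0.0700) without fibronectin and -0.47 (95% interval -1.07 to 0.14, adjusted p = 0.239) with fibronectin, by the edgeR F-test with Benjamini-Hochberg adjustment. Both differences lay below 0, but neither passed the threshold. Without IgG without fibronectin replicate 1 the first was -0.93 (adjusted p = 0.0445, edgeR), and without anti-ITGA5 without fibronectin replicate 3 it was also -0.93 (adjusted p = 0.0452, edgeR). Without anti-ITGA5 with fibronectin replicate 3 the second was -0.86 (adjusted p = 0.0116, edgeR). Without the filter on low counts both were called, at -0.74 (adjusted p = 0.0203) and -0.47 (adjusted p = 0.0482, edgeR).

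Mmp19 encodes a secreted MMP that cleaves basement membrane proteins. The gene lies on chromosome 10 from 128790910 to 128800824. Without fibronectin its level was 7.45, 8.02 and 7.40 FPKM in IgG and 5.52, 6.41 and 5.02 FPKM upon ITGA5 neutralization. With fibronectin it was 7.81, 7.51 and 8.21 FPKM in IgG and 5.21, 5.38 and 6.06 FPKM upon ITGA5 neutralization. The IgG libraries were all above the anti-ITGA5 libraries. On the log2 scale Mmp19 fell by 0.43 without fibronectin (standard error 0.0979, adjusted p = 0.0105) and by 0.50 with fibronectin (standard error 0.0801, adjusted p = 5.77e-04, edgeR F-test, Benjamini-Hochberg). The first call was lost without IgG without fibronectin replicate 2 (adjusted p = 0.0505, edgeR) and with limma on unfiltered FPKM (adjusted p = 0.0743). Mmp19 overlaps Tmem198b on the opposite strand, which had 98 to 141 counts, and the strand setting of the counting is not given in the sources used here, so that reads of the pair may not be told apart.

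Timp2 is a secreted inhibitor of most MMPs that also takes part in the activation of pro-MMP2 by MT1-MMP. The gene (ENSMUSG00000017466) lies on the minus strand of chromosome 11 from 118301069 to 118355740. Its level without fibronectin was 34.2, 35.0 and 38.0 FPKM in IgG and 30.8, 26.4 and 31.7 FPKM upon ITGA5 neutralization. With fibronectin the level was 38.0, 37.2 and 37.0 FPKM in IgG and 30.0, 27.2 and 32.6 FPKM upon ITGA5 neutralization. The anti-ITGA5 libraries were below the IgG libraries throughout. On the log2 scale Timp2 fell by 0.26 without fibronectin (standard error 0.0695, adjusted p = 0.0220) and by 0.32 with fibronectin (standard error 0.0584, adjusted p = 0.00138, edgeR F-test, Benjamini-Hochberg). The call without fibronectin was lost with any of the 3 IgG libraries left out, and with anti-ITGA5 replicate 1 left out, at adjusted p of 0.0508 to 0.113 (edgeR). It was also lost with limma on FPKM.

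Timp1, an inducible inhibitor with a high affinity for MMP9, had 18, 12 and 16 counts in IgG and 13, 15 and 23 upon ITGA5 neutralization without fibronectin. With fibronectin it had 29, 16 and 9 counts in IgG and 26, 22 and 15 upon ITGA5 neutralization. The groups overlapped, and the 95% intervals of the log2 difference, -0.60 to 0.94 and -0.54 to 1.17, allowed a change in either direction. Timp1 lies within Syn1 on the opposite strand of chromosome X, and Syn1 had more counts, 61 to 120 per library. Timp3, an inhibitor bound to the matrix, had 4, 0 and 5 counts in IgG and 2, 4 and 0 upon ITGA5 neutralization without fibronectin. With fibronectin it had 10, 5 and 3 counts in IgG and 4, 1 and 3 upon ITGA5 neutralization. A count of 0 allows up to 3 counts, which corresponds to 0.0208 FPKM and 0.0180 FPKM in the 2 libraries concerned, as far as counting error goes. Timp3 lies within Syn3, on the opposite strand, which had 3 to 12 counts.

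**Figure D3:**
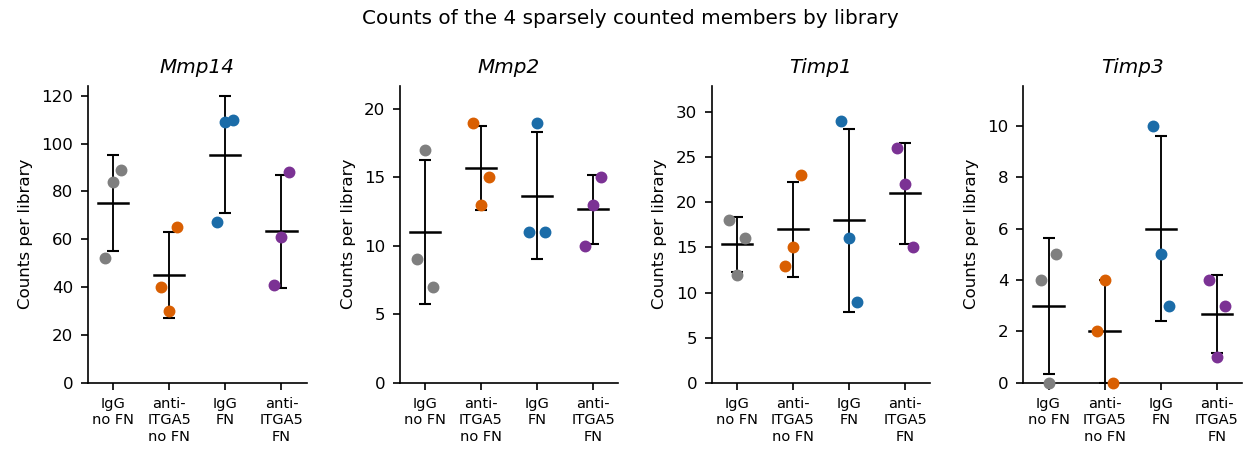
Counts per library (vertical axes) of the 4 members with few counts in the 4 groups. Points are libraries, lines the group means and bars the SD (n = 3), and FN stands for fibronectin. Mmp2 (7 to 19 counts), Timp1 (9 to 29) and Timp3 (0 to 10) overlap between all groups.

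Fibronectin coating was compared with no coating under each antibody. In IgG, 3 of the 8 members tested other than Mmp9 were called higher, where 0.325% of the 12925 genes tested, or 42 genes, were higher. These were Mmp12, Mmp13 and Mmp8, the elastase and both collagenases. In the values listed above, all IgG libraries with fibronectin were above all IgG libraries without it for each of the 3. The log2 fold change was 0.60 for Mmp12 (standard error 0.0416, adjusted p = 1.01e-06), 0.80 for Mmp13 (standard error 0.119, adjusted p = 0.00569) and 0.51 for Mmp8 (standard error 0.103, adjusted p = 0.0403), by the edgeR F-test with Benjamini-Hochberg adjustment. The comparison shares the libraries of IgG without fibronectin with the antibody comparison, so that the 2 rises of Mmp12 rest on the same 3 low libraries.

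The calls differed in firmness. That of Mmp12 held under each alternative tried, at adjusted p-values up to 0.0290. Mmp13 was not called with all 12 libraries in one edgeR fit (adjusted p = 0.109), with limma on FPKM (adjusted p = 0.167 to 0.328), or without replicate 1 of either IgG group (adjusted p = 0.0951 and 0.0604, edgeR). Mmp8 was not called in the fit of all 12 libraries (adjusted p = 0.240, edgeR), with limma (adjusted p = 0.322 to 0.569), or with any one of 5 of the 6 libraries left out (adjusted p = 0.0552 to 0.204, edgeR). The exception was IgG with fibronectin replicate 2. DESeq2 gave no adjusted p-value for Mmp8 and Mmp13 here. The levels of Mmp19 and Timp2 in IgG differed by 0.03 (95% interval -0.11 to 0.18) and 0.06 (95% interval -0.03 to 0.15) on the log2 scale between the coatings.

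Upon ITGA5 neutralization, 0 members and 0% of the 12863 genes tested, in either direction, were called between the coatings by the edgeR F-test. At an unadjusted p-value under 0.05 there were 461 genes, Mmp8 among them. DESeq2 called 5 genes, none of them a member, and limma called 0. The log2 difference between the coatings was 0.32 for Mmp8 (95% interval 0.09 to 0.55), 0.22 for Mmp13 (95% interval -0.12 to 0.57) and -0.05 for Mmp12 (95% interval -0.20 to 0.11). Without the filter on low counts, edgeR called Mmp8 (0.34, adjusted p = 0.0186), beside 327 of 25430 genes, or 1.29%. Mmp9 is given without a test.

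The chromosome 9 cluster spans 427072 bases, from 7272514 to 7699585, and the 10 MMP genes listed for it were given by their counts. Mmp13, Mmp12, Mmp8 and Mmp27 had at least 144 counts in every library. Mmp10, the stromelysin 2 gene between Mmp12 and Mmp8, had 4 to 19 counts, and Mmp1b and Mmp3 had 1 count each over all libraries. Mmp1a, Mmp20 and Mmp7 had 0 counts in all 12. Mmp27, the neighbour of Mmp8, moved the other way from it with the antibody. Without fibronectin its mean level and SD (n = 3) were 4.41 ± 0.662 FPKM in IgG and 7.92 ± 0.536 FPKM in anti-ITGA5, and with fibronectin 5.11 ± 0.392 FPKM and 8.71 ± 0.589 FPKM. Mmp27 rose by 0.85 (adjusted p = 5.64e-04) and 0.77 (adjusted p = 7.39e-05) on the log2 scale, by the edgeR F-test with Benjamini-Hochberg adjustment. On fibronectin in IgG its log2 difference was 0.21 (adjusted p = 0.602, edgeR).

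**Figure D4:**
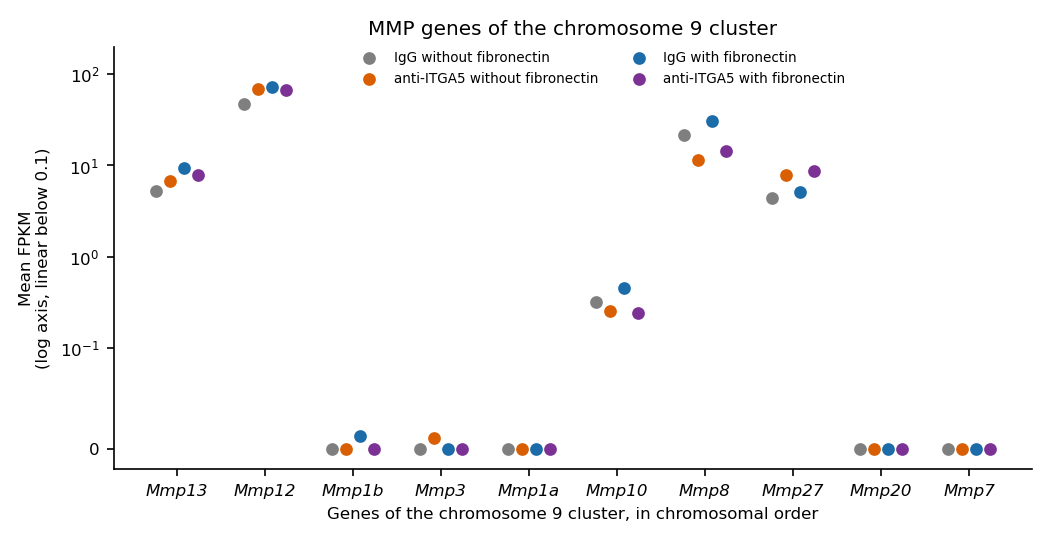
Mean FPKM (vertical axis, logarithmic above 0.1 and linear below) of 10 MMP genes of the chromosome 9 cluster, in the order in which they lie on the chromosome, with 1 point per group (n = 3 libraries). Expressed genes (Mmp13, Mmp12, Mmp8, Mmp27 and, at a low level, Mmp10) lie beside genes at or near 0.

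Summed over the 7 MMPs, the level (mean ± SD, n = 3) was 91.0 ± 2.90 FPKM in IgG and 96.3 ± 1.54 FPKM in anti-ITGA5 without fibronectin. With fibronectin it was 131 ± 8.08 FPKM in IgG and 101 ± 7.55 FPKM in anti-ITGA5. The IgG libraries with fibronectin were above all others. The makeup of the sum differed between groups. Mmp12 held 50.8% to 55.1% of it in IgG without fibronectin and 71.3% to 73.7% in anti-ITGA5 without fibronectin, against 54.1% to 59.1% and 64.1% to 70.1% with fibronectin. Mmp9 held 8.12% to 8.78% of it in IgG without fibronectin and 1.59% to 2.66% upon ITGA5 neutralization, against 6.60% to 7.28% and 3.08% to 3.98% with fibronectin. The sum over the 3 TIMPs, of which Timp2 made up 95.1% to 98.5%, was 36.7 ± 2.02 FPKM in IgG and 30.8 ± 2.73 FPKM in anti-ITGA5 without fibronectin. With fibronectin it was 38.5 ± 1.18 FPKM in IgG and 31.2 ± 2.60 FPKM in anti-ITGA5. The ratio of Mmp9 to Timp1 was 6.26 to 10.2 in IgG and 1.24 to 2.49 in anti-ITGA5 without fibronectin, and 4.74 to 17.1 in IgG and 2.44 to 3.68 in anti-ITGA5 with fibronectin. Its denominator rests on 9 to 29 counts. These sums, shares and ratios are descriptions without a test. The sums follow the most abundant members. The ratio and the share of Mmp9 restate the antibody values on which Mmp9 was picked, since Timp1 overlapped between the groups.

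**Figure D5:**
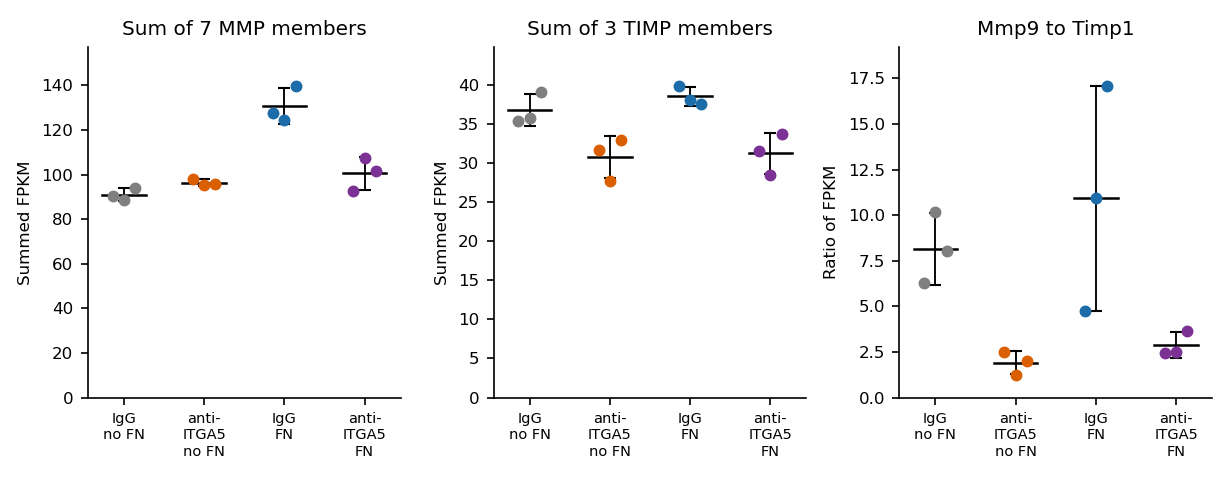
Summed FPKM of the 7 MMP members (left) and of the 3 TIMP members (middle) and the ratio of Mmp9 to Timp1 FPKM (right) in the 4 groups. Points are libraries, lines the group means and bars the SD (n = 3), and FN stands for fibronectin. The summed MMPs reach 124 to 140 FPKM in IgG with fibronectin and 88.5 to 107 FPKM in the other groups. The ratio restates the values on which Mmp9 was picked.

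Other parts of the proteolytic network were described from 6 lists. The counts called are set beside the shares of all genes given above for the antibody comparisons. Of 18 other MMPs, Timp4 and Reck, 4 were tested without and 5 with fibronectin, and Mmp27 was the 1 gene called. Of 15 ADAM and ADAMTS proteases, 8 were tested and 2 fell on both coatings, Adam8 (-0.36 and -0.33) and Adam15 (-0.30 and -0.20), cell-surface proteases of the disintegrin family. Of 7 tested genes of plasminogen activation, 2 fell and 1 rose without fibronectin, and 4 fell and 1 rose with it. Plau, the urokinase that starts the plasmin cascade able to activate pro-MMPs, rose by 0.30 (adjusted p = 0.00728) and 0.49 (adjusted p = 2.69e-05), whereas Serpinb8 (-0.36 and -0.39) and Serpinb6a (-0.31 and -0.22), intracellular serpins, fell. The calls without fibronectin were lost in 5 of 16 alternatives for Serpinb8, at adjusted p up to 0.115 (edgeR, DESeq2 or limma), and in 3 of 16 each for Adam15, at up to 0.110, and Plau, at up to 0.369. Those of Adam8 (adjusted p = 0.213) and Serpinb6a (adjusted p = 0.0808) were lost with limma on unfiltered FPKM. All values are log2 fold changes without and with fibronectin, called by the edgeR F-test with Benjamini-Hochberg adjustment.

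Of 9 tested activators and surface partners of MMPs, 2 fell and 1 rose without fibronectin, and 5 fell and 1 rose with it. Furin, the proprotein convertase that activates pro-MMP14, fell by 0.38 and 0.40 on the log2 scale, and Lrp1, an endocytic receptor that clears MMP9 and MMP13, by 0.19 and 0.22. Cd44, a hyaluronan receptor that docks MMP9 at the cell surface, rose by 0.27 and 0.24 (adjusted p = 0.00496 and 0.00254, edgeR). Lrp1 without fibronectin was not called in 8 of 16 alternatives, at adjusted p of 0.0544 (edgeR, total counts in place of TMM) to 0.272 (limma without a filter), among them 4 of the 6 that left out a library, and with fibronectin in limma without a filter (adjusted p = 0.0745). All 10 other matrix-degrading enzymes and inhibitors of the list were tested, and 5 fell and 1 rose without fibronectin, against 8 and 1 with it. Ctss (-0.48 and -0.49) and Ctsl (-0.46 and -0.39), the cysteine cathepsins S and L, and Hpse (-0.53 and -0.39), heparanase, fell most among those called on both coatings. With limma on unfiltered FPKM, Ctss (adjusted p = 0.157) and Ctsl (adjusted p = 0.0873) were not called without fibronectin, nor Hpse with fibronectin (adjusted p = 0.0677). Ctsz, cathepsin Z, was the 1 gene of the 6 lists called on fibronectin in IgG, at 0.20 on the log2 scale (adjusted p = 0.0178, edgeR). It was not called in 7 of 16 alternatives, which were the fit of all 12 libraries (adjusted p = 0.380, edgeR), limma (adjusted p = 0.124 to 0.344) and leaving out replicate 1 of either IgG group or IgG without fibronectin replicate 2 (adjusted p = 0.0664 to 0.204, edgeR).

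Of 14 AP-1 and Ets transcription factors, which bind the motifs marked in the sequences, 2 fell and 1 rose without fibronectin, and 6 fell and 1 rose with it. Fos fell by 0.58 and 0.90 and Junb by 0.42 and 0.38 on the log2 scale, while Ets2 rose by 0.23 and 0.32 (edgeR F-test, Benjamini-Hochberg, adjusted p = 0.00696 and 0.00118 for Ets2). Without fibronectin the call of Fos was lost with limma on unfiltered FPKM (adjusted p = 0.0959), and that of Junb with the same fit (adjusted p = 0.133) and without IgG without fibronectin replicate 3 (adjusted p = 0.0695, edgeR). On fibronectin in IgG the log2 difference of Fos was 0.30 (adjusted p = 0.182, edgeR).

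Genes most like each member were taken as those with the highest Pearson correlation of log2 CPM (counts scaled by library size) over the 12 libraries, among the 11686 genes that reached 10 counts in all libraries. Mmp9 was followed by Fth1 (r = 0.98), the ferritin heavy chain, then Ceacam1. Mmp8 was followed by Nqo1 (r = 0.97), a quinone reductase, then Mcl1 and Pirb. The nearest genes were Soat1 for Mmp19 (r = 0.98), Smpdl3a for Timp2 (r = 0.98), Cd274 for Mmp14 (r = 0.96), Igsf6 for Mmp13 (r = 0.90) and L1cam for Mmp12 (r = 0.89). The 12 points fall into the 4 groups, so that these values mostly describe differences between groups that are shared by many genes.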

How the data were processed

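The authors sequenced polyadenylated RNA as 150 bp paired-end reads, aligned them with TopHat2 to GRCm38 and counted reads on Ensembl genes with HTSeq. They deposited raw counts per gene and FPKM, which are counts over gene length and 1 constant per library. The strand setting and the Ensembl release are not given in the sources used here. All 12 columns were used.

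Counts (12954342 to 22075432 per library) were analysed with edgeR 4.0.16 under R 4.3.3 after filterByExpr (at least 10 counts, and 15 in total) and TMM scaling. Each pair of groups was fitted on its own 6 libraries and the interaction on all 12. Calls required an adjusted p of at most 0.05. Standard errors are the log2 fold change over the square root of F, and intervals are at 95%. FPKM are given per library or as mean and SD. Depth limits the precision of the sparse members, as their intervals show. The fits were tested on simulated data.

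The members, the pathway and marker lists and the rule for named genes were chosen with earlier results of these data known. The rule names all members and, per pathway list, up to 3 genes with the largest mean antibody effect among those called on both coatings with the same sign, and up to 2 called on fibronectin in IgG. It adds the chromosome 9 cluster, the 3 genes most like each member and overlapping genes. One gene that the rule names is not reported here. Mpo, Ly6g, Retnlg, S100a8, Acp5 and Vwf fall outside it and were picked once their values were known.

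The alternatives comprised DESeq2 1.42.0 instead of edgeR, scaling by DESeq2 size factors or by total counts, no filter or a stricter one (10 counts in each library), one fit of all 12 libraries, a block for the replicate number, limma 3.58.1 on log2 FPKM with a pseudocount of 1 or 0.1 above 0.5 FPKM and with a pseudocount of 1 unfiltered, and leaving out each library.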

Additional observations from a re-analysis of the deposited data

Results flagged for a closer look

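The antibody effect on Mmp12 differed between the coatings by the test of the interaction (-0.65 on the log2 scale, adjusted p = 0.00764, edgeR F-test, Benjamini-Hochberg). Mmp12 rose by 0.55 without fibronectin and its difference was -0.09 with fibronectin. The call of the interaction was lost in 5 of 21 alternatives, at adjusted p up to 0.0773 (limma), while the value kept its sign.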

How the results depend on the processing

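Mmp9 is left out of the counts for the antibody and the interaction, and stays in those of fold changes on fibronectin. The 11 fold changes of members called by edgeR kept their direction in all 179 values from the alternatives, and 29 of those values no longer passed the threshold. Of 515 values for the 31 fold changes not called, 18 passed it and 27 changed sign. Without fibronectin, limma on log2(FPKM + 1) unfiltered called 1 member lower upon ITGA5 neutralization in place of 3, and leaving out libraries gave 1 to 4. Total counts, no filter and the replicate block each called 2 members higher, and leaving out libraries gave 1 to 2. With fibronectin, leaving out libraries gave 3 to 5 lower members. On fibronectin in IgG, 1 member was called higher with all 12 libraries in one fit and in each of the 3 limma fits, and 1 to 3 with libraries left out. In anti-ITGA5, Mmp8 was higher on fibronectin without a filter. For the interaction, no filter gave 2 members lower, limma gave 0 lower in each fit, and leaving out libraries gave 0 to 1. The cause of these changes was not tested. DESeq2 gave no adjusted p-value for Mmp8 and Mmp13 on fibronectin in IgG, at unadjusted p of 0.00381 and 3.72e-09.

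Small log2 differences changed sign. With libraries left out, Mmp2 ranged from -0.20 to 0.22 for the antibody with fibronectin, and on fibronectin in IgG Mmp2 from -0.10 to 0.58, Mmp14 from -0.019 to 0.34 and Timp1 from -0.50 to 0.36 (-0.047 with limma on log2(FPKM + 0.1)). On fibronectin in anti-ITGA5, Mmp19 ranged from -0.12 to 0.069 and Timp2 from -0.071 to 0.064, with 0.0079 for Timp2 in DESeq2, 0.016 without a filter and 0.014, 0.015 and 0.014 in limma. For the interaction, Mmp14 ranged from -0.12 to 0.54, Mmp19 from -0.15 to 0.034, Timp1 from -0.17 to 0.72 and Timp2 from -0.13 to 0.0088.

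The labels do not tie the replicate numbers to a shared animal or batch, so the numbers were not taken to pair the libraries. Deviations of same-numbered libraries correlated at -0.03 to 0.15, with 7 of 18 pairs over 0.1 and a median of 0.080, against a median of -0.044 and 1 of 36 for libraries of different numbers. This is a hint of shared structure from the data, although anti-ITGA5 without fibronectin replicate 2 correlated more with replicate 3 of anti-ITGA5 with fibronectin (0.11) than with its own number there (-0.0061). With the replicate block, 2 members were higher without fibronectin in place of 1 (Mmp13, adjusted p = 0.0169, edgeR) and 4 lower in place of 3 (Mmp14, adjusted p = 0.0454, edgeR), and with fibronectin 5 were lower in place of 3 (Mmp13, adjusted p = 0.0403, and Mmp14, adjusted p = 0.0291, edgeR), where 4538 genes were called in place of 3565. The number called on fibronectin in IgG over all genes was 416 in place of 58. That number was 241 without a filter, 141 with DESeq2, 11 in one fit of all libraries and 5 to 17 with limma. Depth limits Mmp2, Timp1 and Timp3.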
